A study of Mus musculus with 27 samples.

Results

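Type IV collagen (Col IV) is encoded in the mouse by 6 genes, Col4a1 to Col4a6, which lie as 3 pairs that face away from each other across a shared start region. The 6 genes were taken by symbol from both deposited count tables, out of 22855 genes in all, and each pair was followed by its level in CPM, the gene's counts scaled to a common library total, in every sample. They were picked with their fibroblast levels at postnatal day 1 and 4 weeks already known, so fibroblast values that involve those ages are given as descriptions without a test. RNA was sequenced from C57Bl/6 mice without a transgene or treatment named in the labels, as 12 samples of PDGFRα cardiac fibroblasts, isolated by flow cytometry for this surface receptor, and 15 samples of whole heart. Fibroblasts had 3 samples at postnatal day 1 and at 4 weeks and 2 samples at each of the later ages (14 weeks, 1 year, 1.5 years), and whole hearts had 3 samples at every age. By the study's methods, separate animals were used at each age and the fibroblast sets came from separate hearts, and more fibroblast sets are described for the later ages than were analysed here. The study also describes sequencing the hearts that had yielded the fibroblasts, so fibroblast and heart samples of an age may share animals. The labels do not tie samples to animals, so tests between the tissues were run without pairing, as if all samples were independent. Heart values at day 1 and 4 weeks may likewise not be independent of the fibroblast values the genes were picked on. Whether hearts were pooled within a sample is not given in the sources used here.

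Col IV is the network-forming collagen of basement membranes, the thin sheets that lie under endothelium and epithelium and around muscle cells. Chains join as trimers inside the cell, and after secretion the trimers link into a lattice that binds laminin networks through nidogen and perlecan. The chains of Col4a1 and Col4a2 form the trimer found in nearly every basement membrane, including that of the heart capillary. The chains of Col4a3, Col4a4 and Col4a5 form the network of the kidney glomerulus, and loss of any of these is the cause of Alport syndrome. The chains of Col4a5 and Col4a6 form a network known from smooth muscle, among other sites.

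The start regions of the pairs differed in spacing. On GRCm38 with the GENCODE M21 annotation, Col4a1 (ENSMUSG00000031502) was on chromosome 8 from 11198423 to 11312826 on the minus strand, and Col4a2 (ENSMUSG00000031503) from 11312805 to 11449287 on the plus strand. Their annotated starts were 21 bases apart, and 22 bases belonged to the first exon of both genes. Col4a3 (ENSMUSG00000079465) was on chromosome 1 from 82586921 to 82722059 on the plus strand and Col4a4 (ENSMUSG00000067158) from 82448423 to 82586849 on the minus strand, with starts 72 bases apart. Col4a5 (ENSMUSG00000031274) was on chromosome X from 141475385 to 141689234 on the plus strand and Col4a6 (ENSMUSG00000031273) from 141165403 to 141474076 on the minus strand, with starts 1309 bases apart.

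Stretches at or between the starts of the paired genes are shown because the pairs were also compared by how closely their 2 genes moved together. They were read from the RefSeq promoter windows on GRCm38.p6, which covered 5 of the 6 genes (all but Col4a3). Capitals mark the whole shared exon stretch in the first, the bases that lie between the annotated starts in the second, and in the others a match to a searched motif, CCAAT before Col4a5 and CCGCCC, the reverse complement of GGGCGG, before Col4a6.
Col4a1 and Col4a2, chr8:11312805-11312826, plus strand: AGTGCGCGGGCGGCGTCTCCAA
Col4a4 and Col4a3, chr1:82586850-82586975, minus strand: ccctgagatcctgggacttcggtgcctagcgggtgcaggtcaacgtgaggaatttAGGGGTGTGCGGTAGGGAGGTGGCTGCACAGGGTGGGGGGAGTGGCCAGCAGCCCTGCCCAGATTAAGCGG
before Col4a5, chrX:141475169-141475384, plus strand: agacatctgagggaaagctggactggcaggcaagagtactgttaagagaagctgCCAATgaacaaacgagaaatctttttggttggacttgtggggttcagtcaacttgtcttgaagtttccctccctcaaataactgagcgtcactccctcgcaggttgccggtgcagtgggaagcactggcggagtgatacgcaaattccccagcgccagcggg
before Col4a6, chrX:141474077-141474326, minus strand: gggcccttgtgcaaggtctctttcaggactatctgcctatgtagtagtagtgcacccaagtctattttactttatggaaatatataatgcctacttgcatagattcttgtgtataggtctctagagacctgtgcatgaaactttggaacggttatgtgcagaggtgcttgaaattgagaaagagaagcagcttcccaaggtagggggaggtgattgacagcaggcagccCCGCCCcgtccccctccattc

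Base composition also differed between the windows, with the most G, C and CpG at Col4a1 and Col4a2. The windows of these genes overlap by 78 bases, so their values are partly shared. Of the 300-base windows around the starts (250 before and 50 after), that of Col4a1 had 74.0% G or C with 37 CpG dinucleotides, and that of Col4a2 had 73.7% with 33. The window of Col4a4 had 63.3% and 14 CpG, that of Col4a5 had 52.7% and 11, and that of Col4a6 had 48.3% and 3, against medians of 52.7% and 7 over 32851 windows. The motif GGGCGG, searched on both strands together with CCAAT and TATAAA, occurred in the windows of Col4a1, Col4a2, Col4a5 and Col4a6 and in 35.7% of all windows. CCAAT occurred in those of Col4a1, Col4a2 and Col4a5 and in 37.4% of all, and TATAAA in none of the 5 and in 13.6% of all. These are matches of letters, and binding was not measured.

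Totals ranged from 54615898 to 76758831 counts in fibroblasts and from 46091271 to 67984404 in whole hearts, and genes of the mitochondrial genome took 1.74% to 9.18% and 10.8% to 34.5% of them. Levels are given as CPM after scaling by the trimmed mean of M-values (TMM) within a tissue, so levels are compared between ages and not directly between tissues. All 6 genes passed the filter on low counts in both tissues, with from 60 to 476070 counts per fibroblast sample and from 30 to 87646 per heart sample. Of the Col4a3 exon bases, 5.65% were shared with C430014B12Rik. How reads on these bases were counted depends on the strand setting and annotation, which are not given in the sources used here. In bulk samples, fewer cells of a type and less RNA per cell cannot be told apart. Xist was at most 0.57 CPM and Ddx3y at least 35.5 CPM in every sample at 14 weeks and 1 year, whereas at 1.5 years Xist was at least 34.8 CPM and Ddx3y at most 0.397 CPM in every sample. All samples at day 1 and 4 weeks held both transcripts, with Xist at 137 to 590 CPM and Ddx3y at 24.8 to 50.8 CPM in fibroblasts and at 6.48 to 334 CPM and 1.64 to 33.9 CPM in hearts. Sex composition and age therefore cannot be told apart when day 1 or 4 weeks is compared with any age from 14 weeks on. The same holds for 1.5 years against 14 weeks or 1 year. These limits include the X-linked Col4a5 and Col4a6. In fibroblasts Xist was at 137 to 276 CPM on day 1 and 379 to 590 CPM at 4 weeks. In hearts Xist was at 124 to 334 CPM on day 1 and 6.48 to 140 CPM at 4 weeks, and Ddx3y at 4.58 to 26.6 CPM and 1.64 to 33.9 CPM. Whether the mix of sexes differed between day 1 and 4 weeks was not tested in either tissue.

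In cardiac fibroblasts the pairs took opposite courses between postnatal day 1 and 4 weeks. Col4a1 and Col4a2 were lower at 4 weeks, while the other 4 genes were between 10.8 and 105.9 times as high by their means. These are the values the genes were picked on. Fibroblast markers summed to at least 23132 CPM in every fibroblast sample, whereas the 8 cardiomyocyte markers summed to at most 772.7 CPM. Endothelial markers summed to 356.0 to 2195 CPM over the fibroblast samples, and pericyte and smooth muscle markers to 462.8 to 1128 CPM. The part of those cells in the Col IV levels was not tested. The fibroblast markers were Pdgfra, Tcf21, Dcn, Lum, Dpt and the collagen genes Col1a1, Col1a2 and Col3a1.

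**Figure D1:**
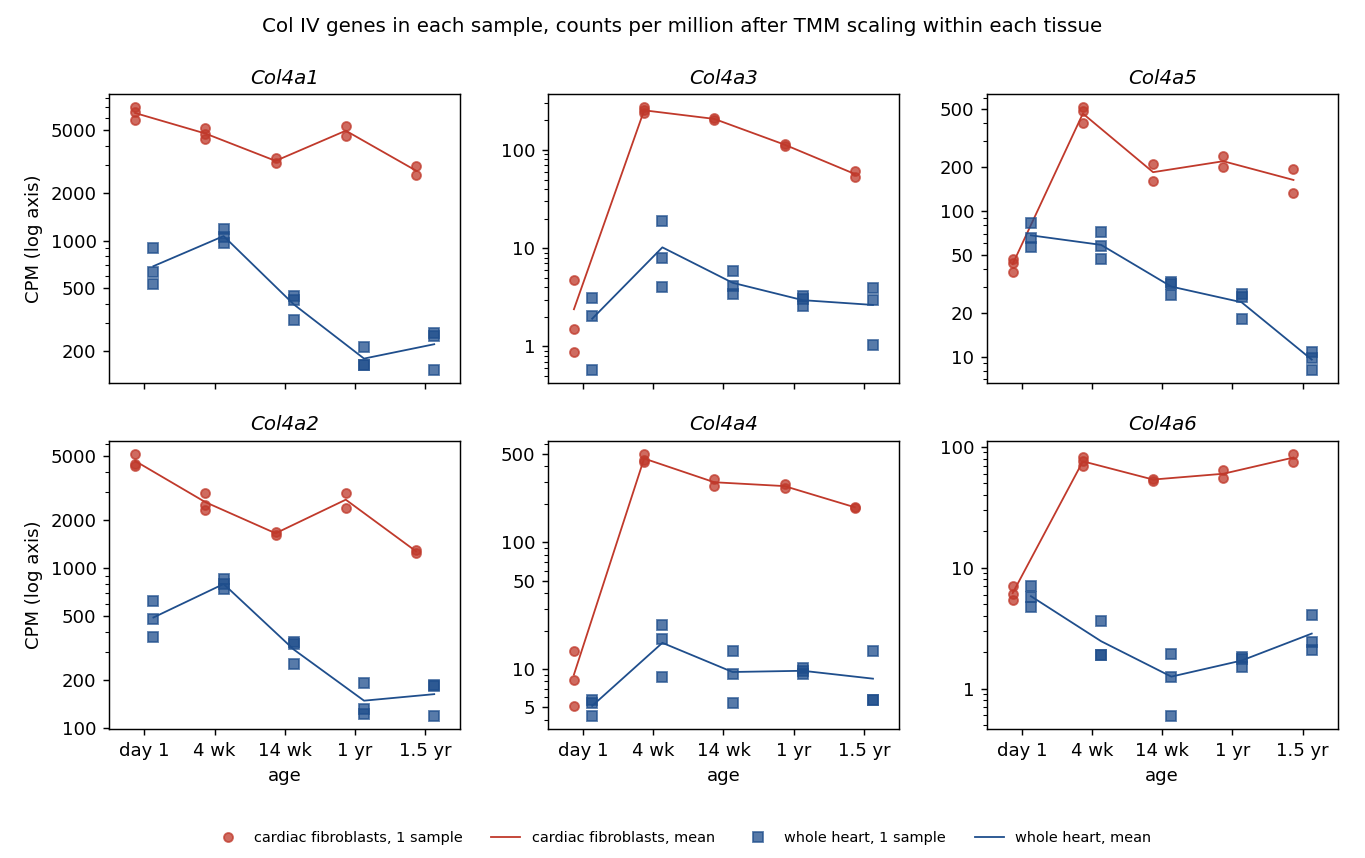
Level of each Col IV gene by age, as CPM after TMM scaling on a log axis, with a circle for each fibroblast sample, a square for each whole heart sample and a line through the means. In fibroblasts Col4a3, Col4a4, Col4a5 and Col4a6 stand far lower at day 1 than at any later age, whereas Col4a1 and Col4a2 are highest at day 1.

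Col4a1, which supplies most of the common trimer, was measured in fibroblasts at 5783, 6569 and 6989 CPM on postnatal day 1 and at 4402, 4733 and 5211 CPM at 4 weeks. It was at 3090 and 3327 CPM at 14 weeks, 5364 and 4601 CPM at 1 year, and 2957 and 2611 CPM at 1.5 years. The day 1 samples were the highest, the 1-year samples lay above those at 14 weeks and 1.5 years, and no 2 neighbouring ages overlapped. Col4a2, its partner chain, was at 4334, 4507 and 5183 CPM on day 1, at 2307, 2500 and 2951 CPM at 4 weeks, and at 1622 and 1683 CPM at 14 weeks. It was at 2966 and 2394 CPM at 1 year and at 1303 and 1249 CPM at 1.5 years. Its order of ages was that of Col4a1, although the mean at 1.5 years was 3.66 times lower than on day 1 for Col4a2 and 2.32 times lower for Col4a1.

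Col4a3 was low in neonatal fibroblasts, with 4.79, 0.878 and 1.50 CPM, and stood at 253.1, 236.0 and 270.4 CPM at 4 weeks. It then stood lower at each age, with 210.4 and 203.5 CPM at 14 weeks, 116.1 and 110.4 CPM at 1 year, and 60.6 and 53.3 CPM at 1.5 years. No 2 ages overlapped, and the mean at 4 weeks was 4.45 times that at 1.5 years. Col4a4, whose chain joins that of Col4a3 in the same trimer, was at 13.9, 5.08 and 8.19 CPM on day 1 and at 499.5, 446.4 and 430.0 CPM at 4 weeks. It was at 277.5 and 318.7 CPM at 14 weeks, 288.5 and 267.4 CPM at 1 year, and 191.3 and 187.3 CPM at 1.5 years. Here the 14-week and 1-year samples overlapped, so the order of these 2 ages is not set by the data. The day 1 sample with the highest Col4a3, replicate 1, also had the highest Col4a4.

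Col4a5, whose chain takes part in both minor networks, was at 38.3, 44.2 and 47.2 CPM on day 1 and at 513.2, 485.5 and 400.3 CPM at 4 weeks. It was at 209.1 and 160.3 CPM at 14 weeks, 238.5 and 200.8 CPM at 1 year, and 193.5 and 133.2 CPM at 1.5 years. The 14-week samples overlapped with those of both later ages, the 1-year samples lay above those at 1.5 years, and all 3 ages lay between day 1 and 4 weeks. Col4a6, at the start of the same region of chromosome X, was at 5.37, 6.07 and 7.06 CPM on day 1 and at 81.7, 69.8 and 76.1 CPM at 4 weeks. It was at 54.6 and 52.6 CPM at 14 weeks, 55.6 and 64.1 CPM at 1 year, and 87.5 and 75.5 CPM at 1.5 years. Col4a6 was the member whose 1.5-year samples reached the 4-week range again, and its mean at 1.5 years was 1.07 times that at 4 weeks, against 0.35 for Col4a5.

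From 14 weeks on, where the ages played no part in the choice of genes, the fibroblast data were tested with edgeR's quasi-likelihood test, with p-values adjusted over 18759 genes by the Benjamini-Hochberg method. Between 14 weeks and 1 year, 0 of the 6 genes passed, against 1.78% of all genes (1.31% higher and 0.474% lower). The closest were Col4a2, at 0.70 ± 0.16 (log2 scale, SE) with an adjusted p of 0.0534, and Col4a1, with 0.64 ± 0.15 (adjusted p = 0.0630), both genes being higher in 2 of 2 samples and at unadjusted p-values under 0.05. DESeq2 called both, with 2 of 6 genes. Col4a3 had a log2 fold change of -0.87 ± 0.49 (adjusted p = 0.515). Between 1 year and 1.5 years, 1 of the 6 genes passed, against 0.24% of all genes (0.096% higher and 0.144% lower). Col4a2 fell by 1.07 ± 0.16 on the log2 scale (adjusted p = 0.0215) and was lower in 2 of 2 samples, and Col4a1 was at -0.84 ± 0.16 (adjusted p = 0.0542). The call of Col4a2 was lost without 1.5-year replicate 5 or 1-year replicate 4, with adjusted p-values over the samples left out from 0.0252 to 0.234. The 8 fibroblast markers summed in the same samples to 30312 and 31437 CPM at 14 weeks, 48781 and 39467 CPM at 1 year, and 31142 and 23132 CPM at 1.5 years, so that the 1-year samples were the highest, as for Col4a1 and Col4a2. Of these markers 0 passed the test from 14 weeks to 1 year, and 2 fell and 0 rose by 1.5 years. Their sum includes the collagen genes Col1a1, Col1a2 and Col3a1, so it is partly a measure of collagen expression. The part of these markers in the Col IV values was not tested. Col4a6 was at 0.45 ± 0.18 (adjusted p = 0.647).

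In whole hearts the 6 genes did not share a course. Col4a2, Col4a3 and Col4a4 rose from postnatal day 1 to 4 weeks, Col4a1, Col4a2 and Col4a5 fell from 4 weeks to 14 weeks, and Col4a1 and Col4a2 fell again by 1 year. Col4a5 fell once more by 1.5 years. The fits held all 15 heart samples and tested 17995 genes. Successive comparisons share the samples of the age between them, so their values are not independent.

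Col4a1 was measured in hearts at 635.5, 903.3 and 533.4 CPM on day 1 and at 1194, 968.6 and 1051 CPM at 4 weeks. It was at 448.7, 313.3 and 424.0 CPM at 14 weeks, 164.4, 163.0 and 210.9 CPM at 1 year, and 249.7, 261.7 and 152.2 CPM at 1.5 years. The 4-week samples were the highest, and only the 2 oldest ages overlapped. Col4a2 was at 480.5, 622.2 and 373.8 CPM on day 1 and at 851.1, 740.6 and 798.4 CPM at 4 weeks. It was at 336.0, 250.6 and 344.0 CPM at 14 weeks, 123.6, 131.2 and 191.4 CPM at 1 year, and 183.5, 187.6 and 119.0 CPM at 1.5 years. As for Col4a1, the 4-week samples lay above all others and the 2 oldest ages overlapped.

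Col4a3 was at 3.13, 0.577 and 2.03 CPM in hearts on day 1 and at 7.89, 3.99 and 18.7 CPM at 4 weeks, with replicate 3 far above the other samples. It was between 3.38 and 5.79 CPM at 14 weeks, 2.56 and 3.28 CPM at 1 year, and 1.03 and 3.90 CPM at 1.5 years. Col4a4 was at 5.74, 5.41 and 4.26 CPM on day 1 and at 17.4, 8.72 and 22.3 CPM at 4 weeks, then between 5.38 and 14.0 CPM at all later ages. For Col4a3 the 14-week samples lay above those at 1 year and both overlapped with 1.5 years, and for Col4a4 the 3 oldest ages overlapped. Both genes were thus in hearts at a few CPM, with 56 to 1326 counts per sample for Col4a3 and 195 to 1576 for Col4a4.

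Col4a5 had the highest mean level per kb of the 4 minor genes in hearts at every age. It was at 56.3, 82.3 and 65.7 CPM on day 1 and at 71.6, 46.6 and 57.5 CPM at 4 weeks. It was at 26.4, 31.8 and 32.7 CPM at 14 weeks, 18.2, 26.9 and 25.9 CPM at 1 year, and 10.8, 8.13 and 9.76 CPM at 1.5 years. The 1.5-year samples lay below all others. Col4a6 was at 5.70, 7.04 and 4.71 CPM on day 1, between 1.89 and 3.60 CPM at 4 weeks, and between 0.592 and 1.94 CPM at 14 weeks. It was between 1.51 and 1.84 CPM at 1 year and between 2.08 and 4.07 CPM at 1.5 years, with 30 to 683 counts per sample. The day 1 samples of Col4a6 lay above all later ones.

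**Figure D2:**
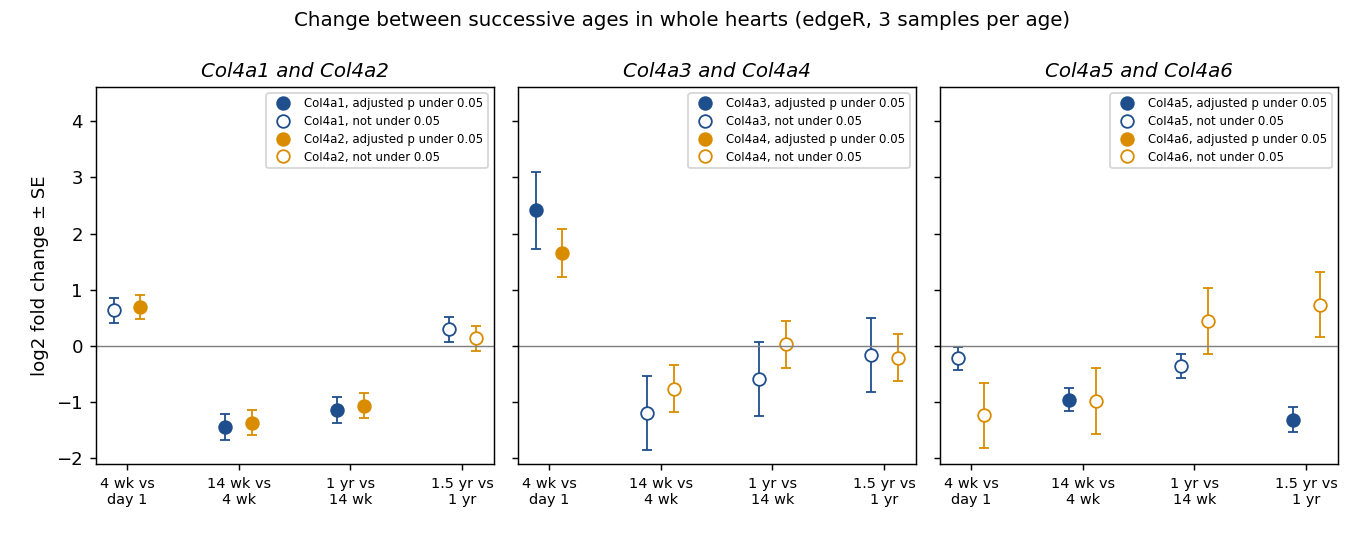
Log2 fold change with its standard error for each gene between successive ages in whole hearts, from edgeR with 3 samples per age, filled where the adjusted p is under 0.05. Both genes of the Col4a1 and Col4a2 pair have similar fold changes at every step, while Col4a5 falls at the last step and Col4a6 does not pass the test at any.

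From postnatal day 1 to 4 weeks, 3 of the 6 genes rose in hearts and 0 fell, against 18.2% of all genes changed (12.1% higher and 6.1% lower). Col4a3 rose by 2.41 ± 0.68 on the log2 scale (SE, adjusted p = 0.0201), Col4a4 by 1.65 ± 0.43 (adjusted p = 0.0118) and Col4a2 by 0.69 ± 0.22 (adjusted p = 0.0365), each higher in 3 of 3 samples. Col4a1 had 0.63 ± 0.22 (adjusted p = 0.0590), Col4a5 had -0.22 ± 0.21 (adjusted p = 0.539) and Col4a6 had -1.24 ± 0.59 (adjusted p = 0.165). Xist in these hearts was at 124 to 334 CPM on day 1 and 6.48 to 140 CPM at 4 weeks. The part of the mix of sexes in these changes, also for the X-linked Col4a5 and Col4a6, was not tested. Leaving out 4-week replicate 3 or day 1 replicate 3 left 0 of 6 calls, the call of Col4a2 was also lost without replicate 1 of either age, and that of Col4a3 without day 1 replicate 2. The log2 fold change of Col4a3 was 1.63 without 4-week replicate 3 and ranged from 1.63 to 2.98 over the 6 samples left out. With library size alone as the scale, the median of all genes lay at -0.598 on the log2 scale, against -0.0868 with TMM, and the 3 calls became Col4a3 higher (1.95) and Col4a5 (-0.74) and Col4a6 (-1.73) lower, with Col4a2 at 0.18 and Col4a4 at 1.14. Endothelial markers summed to 599.9 to 906.9 CPM on day 1 and 1222 to 1434 CPM at 4 weeks, and 5 of the 10 rose and 0 fell, with none of them under 1 CPM in every sample of an age. Of the other markers in hearts, 6 of 8 for cardiomyocytes and 5 of 7 for leukocytes rose with 0 lower, 3 of 10 for pericytes and smooth muscle rose and 3 fell, 2 of 8 for fibroblasts rose and 2 fell, 1 of 7 for glia rose and 1 of 7 for epicardium fell. The part of these cells in the Col IV values was not tested.

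From 4 weeks to 14 weeks, 3 of the 6 genes fell in hearts and 0 rose, against 1.61% of all genes changed (0.756% higher and 0.85% lower). Col4a1 fell by 1.44 ± 0.23 on the log2 scale (SE, adjusted p = 0.00330), Col4a2 fell by 1.36 ± 0.22 (adjusted p = 0.00408) and Col4a5 fell by 0.95 ± 0.21 (adjusted p = 0.0314), each lower in 3 of 3 samples. The calls of Col4a1 and Col4a2 were kept without each sample in turn, whereas that of Col4a5 was lost without 5 of the 6 samples (all but 4-week replicate 2), with adjusted p-values from 0.0201 to 0.149. Fibroblast markers in hearts summed to 1768 to 2419 CPM at 4 weeks and 903.9 to 1117 CPM at 14 weeks, with 3 of 8 lower and 0 higher. The endothelial sum was 1222 to 1434 CPM at 4 weeks and 868.4 to 938.3 CPM at 14 weeks, with 0 of 10 markers past the test, and the sum for pericytes and smooth muscle was 1331 to 1806 CPM and 1008 to 1037 CPM, with 2 of 10 lower and 0 higher. All 3 sums were lower at 14 weeks without overlap, as were Col4a1, Col4a2 and Col4a5, and their part in the fall was not tested. For the X-linked Col4a5 the change in Xist and Ddx3y between these ages likewise cannot be told apart from age. From 14 weeks to 1 year, 2 of the 6 genes fell and 0 rose, against 0.972% of all genes changed (0.389% higher and 0.583% lower). Col4a1 fell by 1.14 ± 0.22 (adjusted p = 0.0305) and Col4a2 fell by 1.06 ± 0.22 (adjusted p = 0.0341), each lower in 3 of 3 samples. Both calls remained only without 1-year replicate 3, Col4a1 alone was called without 14-week replicate 2, and 0 genes were called without any other of the 6 samples or with library size alone as the scale.

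From 1 year to 1.5 years, Col4a5 was the 1 gene of the 6 that fell in hearts and 0 rose, against 2.66% of all genes changed (0.834% higher and 1.82% lower). It fell by 1.31 ± 0.21 on the log2 scale (SE, adjusted p = 0.00722), was lower in 3 of 3 samples, and kept its call without each sample in turn. The call was lost with only the 2 ages in the fit (adjusted p = 0.0980). With offsets for transcript length and GC content it was at -0.66 (adjusted p = 0.102), and Col4a1 and Col4a2 were then called higher, at 0.80 and 0.66. The X-linked Col4a5 fell between the 2 ages at which Xist and Ddx3y also changed, so age and sex cannot be told apart in this comparison. Over the whole span, 3 of the 6 genes were lower at 1.5 years than on day 1, against 31.8% of all genes changed (15.6% higher and 16.3% lower). Sex composition also differed between day 1 and 1.5 years, so it cannot be told apart from age here either. The log2 fold changes were -2.83 ± 0.22 for Col4a5 (adjusted p = 1.19e-07), -1.64 ± 0.23 for Col4a1 (adjusted p = 3.95e-05) and -1.59 ± 0.22 for Col4a2 (adjusted p = 4.80e-05). The values were 0.47 ± 0.65 for Col4a3 (adjusted p = 0.633), 0.71 ± 0.42 for Col4a4 (adjusted p = 0.208) and -1.03 ± 0.58 for Col4a6 (adjusted p = 0.191). The 3 calls were kept under both other scalings, with Col4a1, Col4a2 and Col4a5 at -0.99, -0.92 and -1.97 with length and GC offsets and at -2.24, -2.19 and -3.44 with library size alone. Col4a4 was called higher with the offsets (1.66, adjusted p = 0.00230) and Col4a6 lower with library size alone (-1.65, adjusted p = 0.0316).

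The chain ratio within a pair compares genes with each other, so it was computed from counts per kb of the longest transcript (6615 bases for Col4a1, 6450 for Col4a2, 8554 for Col4a3, 10108 for Col4a4, 6536 for Col4a5 and 6648 for Col4a6). The trimer of the first pair holds more of the Col4a1 chain than of the Col4a2 chain. In all 27 samples Col4a1 exceeded Col4a2 per kb of the longest transcript. With the length of all exon bases of a gene instead (7464 for Col4a1 and 6619 for Col4a2), the mean ratio in 1-year hearts was 1.09 against 1.19. By that length 1-year heart replicate 3, with 10520 counts of Col4a1 and 9548 of Col4a2, did not keep this order. The ratios below use the longest transcript. In fibroblasts the ratio started at 1.35 ± 0.0658 on day 1 and 1.81 ± 0.0764 at 4 weeks (SD, n = 3 each). With n = 2 per age it was then 1.89 ± 0.0495 (14 weeks), 1.82 ± 0.0778 (1 year) and 2.13 ± 0.123 (1.5 years). The day 1 samples, with 1.30 to 1.42, lay below every later fibroblast sample, which had 1.72 to 2.21. In hearts the ratio stayed between 1.07 and 1.42 at all ages, and the exact permutation test over the 5 ages (two-sided, 1401400 partitions, adjusted over 5 ratios) gave an adjusted p of 0.121.

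**Figure D3:**
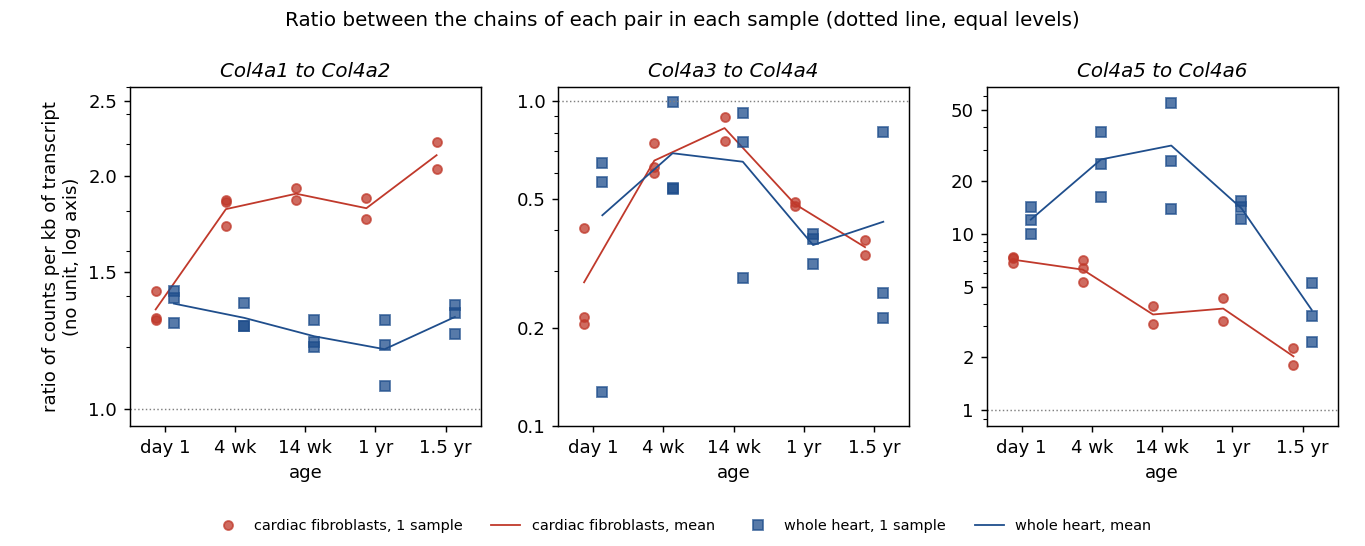
Ratio between the genes of each pair by age, from counts per kb of transcript on a log axis, with a point for each sample and a line through the means. From 4 weeks on the fibroblast ratio of Col4a1 to Col4a2 (1.72 to 2.21) lies above every heart sample (1.07 to 1.42), and the heart ratio of Col4a5 to Col4a6 comes down from 12.2 to 15.4 at 1 year to 2.44 to 5.27 at 1.5 years. Sex composition also changed between 1 year and 1.5 years.

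Col4a4 exceeded Col4a3 in every sample. The ratio of Col4a3 to Col4a4 in fibroblasts was 0.276 ± 0.113 on day 1 and 0.655 ± 0.0770 at 4 weeks (SD, n = 3 each) and 0.825 ± 0.10 in the 14-week samples. It stood at 0.482 ± 0.00868 in the 1-year samples and 0.355 ± 0.0268 in the 1.5-year samples (n = 2 for each of these ages). The day 1 samples overlapped with those at 1.5 years, and 4 weeks and 14 weeks did not overlap with either later age. In hearts the samples of an age spread widely, from 0.127 to 0.645 on day 1 for example, and the exact permutation test over ages gave an adjusted p of 0.573. Col4a5 exceeded Col4a6 in every sample. In fibroblasts this ratio was 7.15 ± 0.314 on day 1 and 6.27 ± 0.867 at 4 weeks (n = 3 each). It was 3.50 ± 0.559 in the 14-week samples, 3.78 ± 0.833 in the 1-year samples and 2.02 ± 0.321 in the 1.5-year samples (n = 2 each). In hearts, with n = 3 per age, it was 12 ± 2.06 (day 1), 26.4 ± 10.9 (4 weeks), 31.6 ± 21.3 (14 weeks), 13.9 ± 1.63 (1 year) and 3.71 ± 1.44 (1.5 years), and it differed between ages by the exact permutation test (adjusted p = 0.00476). The 14-week values of 13.8, 25.8 and 55.2 rest on 109, 45 and 30 counts of Col4a6. In both tissues the lowest values of this ratio were those at 1.5 years. Both genes are X-linked and the sex composition differed at that age, so age and sex cannot be told apart for this ratio.

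The first pair held most of the Col IV counts per kb in every sample, and the minor pairs took a larger share of the total in fibroblasts from 4 weeks on than on day 1. In fibroblasts Col4a1 and Col4a2 together held 99.5% ± 0.0362 on day 1 and 87.6% ± 1.84 at 4 weeks (SD, n = 3 each). They held 89.2% ± 0.757 in the 14-week, 93.3% ± 0.389 in the 1-year and 90.8% ± 0.580 in the 1.5-year samples (n = 2 each). Col4a3 and Col4a4 held 0.0710% ± 0.0473 on day 1, 5.88% ± 0.668 at 4 weeks and 3.73% ± 0.154 at 1.5 years. Col4a5 and Col4a6 held 0.441% ± 0.0114, 6.52% ± 1.21 and 5.44% ± 0.734 at the same ages. Thus neither minor pair was above 1% of the family in neonatal fibroblasts.

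In hearts Col4a1 and Col4a2 held between 88.9% and 96.8% in every sample. The share of Col4a3 and Col4a4 went from 0.400% ± 0.14 on day 1 to 2.42% ± 0.510 in the 1-year and 1.91% ± 0.817 in the 1.5-year samples (SD, n = 3 each). As a ratio to the first pair it differed between ages by the exact permutation test (adjusted p = 0.00576). The ratio of Col4a5 plus Col4a6 to the first pair also differed between ages (adjusted p = 0.00974), with the highest mean at 1 year (0.0783 ± 0.0167) and the lowest at 4 weeks (0.0325 ± 0.00382).

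**Figure D4:**
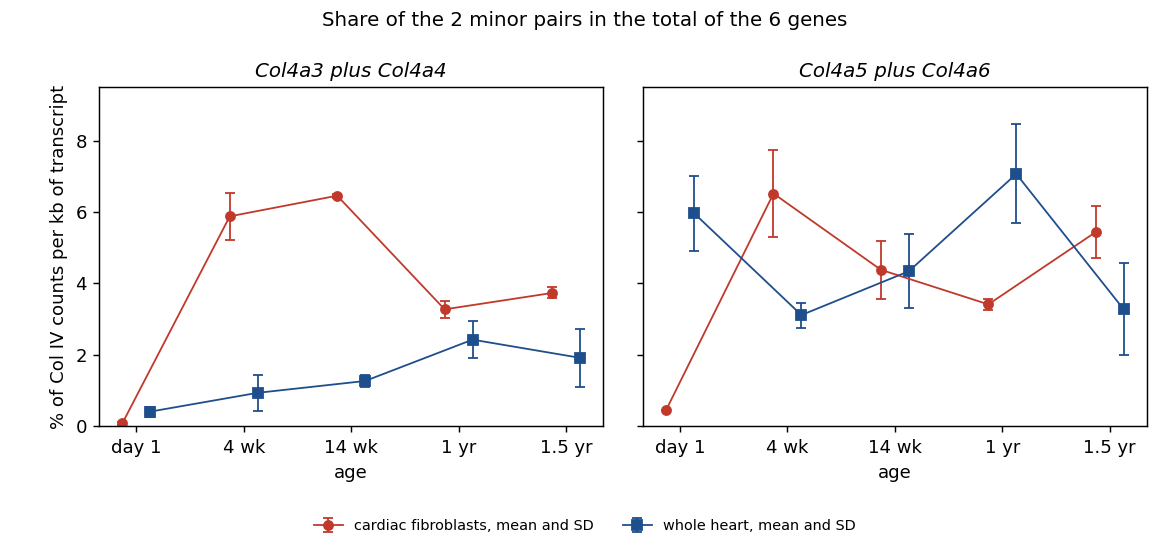
Share of the pairs Col4a3 plus Col4a4 and Col4a5 plus Col4a6 in the counts per kb of all 6 genes, as mean and SD by age for fibroblasts (n = 3, 3, 2, 2 and 2) and whole hearts (n = 3 per age). In fibroblasts both mean shares are under 1% on day 1 and between 3.27% and 6.52% from 4 weeks on.

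Ordered by mean CPM per kb of transcript, fibroblasts on day 1 had Col4a1 (974.6), Col4a2 (724.7), Col4a5 (6.62), Col4a6 (0.928), Col4a4 (0.897) and Col4a3 (0.279), of which Col4a6 and Col4a4 did not differ beyond their spread. At 4 weeks the order was Col4a1 (722.9), Col4a2 (400.9), Col4a5 (71.3), Col4a4 (45.4), Col4a3 (29.6) and Col4a6 (11.4), with no overlap between neighbours. By 1.5 years Col4a6 (12.3) stood above Col4a3 (6.66) in both samples. Hearts on day 1 had the same order as fibroblasts on day 1, from 104.4 for Col4a1 to 0.224 for Col4a3.

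The within-pair correlations are given pair by pair, and the difference between pairs was not tested. The permutations shuffled the hearts without regard to age, so a course over the ages that both genes share enters their p-values. Over the 15 hearts, log2 CPM of Col4a1 and Col4a2 had a Pearson r of 0.996 and a Spearman rho of 0.982, both with a permutation p of 1e-05, the smallest that 100000 permutations can give, and 3e-05 adjusted over the 3 pairs. Col4a2 ranked highest of 13235 genes by r with Col4a1, and Col4a1 highest with Col4a2, and r stayed at 0.994 when the 2 samples farthest from the median were dropped and was 0.963 for deviations from the age means. Col4a3 and Col4a4 had r = 0.680 (permutation p = 0.00400, adjusted 0.00600) and rho = 0.479 (permutation p = 0.0750, adjusted 0.110). Without the 2 farthest samples r was 0.492 (adjusted permutation p = 0.0840). Without 4-week replicate 3 alone it was 0.531 (adjusted permutation p = 0.0730), so this relation rests on those samples. For deviations from the age means r was 0.353 and rho 0.268. Col4a5 and Col4a6 had r = 0.280 (permutation p = 0.310, adjusted 0.310) and rho = 0.275 (permutation p = 0.320, adjusted 0.320), with r = 0.551 (adjusted permutation p = 0.0770) without the 2 farthest samples and -0.047 for deviations from the age means. Col4a4 ranked 66 among the genes most like Col4a3, and Col4a6 ranked 5228 among those most like Col4a5. In hearts Col4a5 had a higher r with genes of another pair, 0.81 with Col4a1 (rank 386) and 0.82 with Col4a2 (rank 314), than with its own partner.

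**Figure D5:**
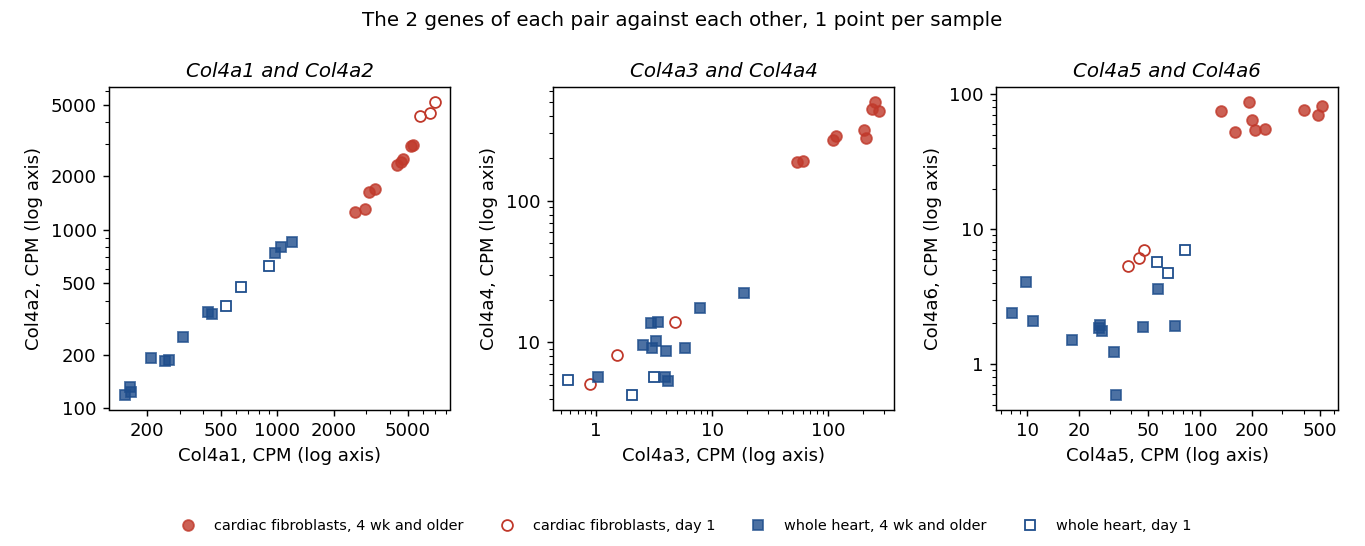
The genes of each pair against each other in CPM on log axes, with a point for each fibroblast (circle) and whole heart (square) sample and open symbols for postnatal day 1. The points of Col4a1 and Col4a2 follow a narrow line in hearts, those of Col4a3 and Col4a4 a wider one, and those of Col4a5 and Col4a6 from 4 weeks on show no clear line within either tissue.

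Over the 12 fibroblast samples r was 0.982 for Col4a1 and Col4a2, 0.991 for Col4a3 and Col4a4 and 0.900 for Col4a5 and Col4a6, as a description, since the difference between day 1 and 4 weeks enters all of them. Over the 9 samples from 4 weeks on, a range chosen after seeing the data, r was 0.991, 0.914 and 0.339 in the same order. Over those 9 samples Col4a2 ranked 1 of 13094 genes for Col4a1, Col4a4 ranked 52 for Col4a3, and Col4a6 ranked 3502 for Col4a5, which had r = 0.89 with Col4a4 (rank 100). The points share their ages and libraries and are given without a test.

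The genes outside the family whose log2 CPM was most like that of each member were found by r among genes with a mean of at least 1 CPM. In hearts those of Col4a1 were Cd93 (0.961), an endothelial receptor, Lamc1 (0.959), a laminin chain, and Ndrg4 (0.959), and for Col4a2 they were Lamc1 (0.966), Ndrg4 (0.962) and Cd93 (0.960). For Col4a3 they were Gpr4 (0.817), 4833413G10Rik (0.812) and Btg2 (0.810), and for Col4a4 they were Ssfa2 (0.903), Tmem100 (0.844) and Sparcl1 (0.829). For Col4a5 they were Dnmt3a (0.949), a DNA methyltransferase, Morc2a (0.943) and Kit (0.941), and for Col4a6 they were Ddah2 (0.936), Tpm2 (0.926), a tropomyosin, and Hmg20b (0.910). In hearts the sets of different pairs had no gene in common. Within a pair, those of Col4a3 and Col4a4 also shared none, nor did those of Col4a5 and Col4a6. Col4a1 and Col4a2 shared Cd93, Lamc1 and Ndrg4. With so few genes per set, a lack of shared genes does not set the pairs apart, and the overlap was not tested. In the 9 fibroblast samples from 4 weeks on the most similar genes were Cav3, Col5a2 and Heg1 for Col4a1 (0.955 to 0.970). They were Plod1, Ndrg4 and Col5a2 for Col4a2 (0.945 to 0.952) and Msi2, Zfp871 and Daam2 for Col4a3 (0.972 to 0.977). They were Larp4b, Chfr and Pxdn, the peroxidase that cross-links Col IV, for Col4a4 (0.983 to 0.985), Col15a1, Eln and Vash1 for Col4a5 (0.972 to 0.982) and Irf8, Pprc1 and Gse1 for Col4a6 (0.937 to 0.953).

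All 6 genes were higher in fibroblasts than in whole hearts at every age from 14 weeks on. The joint fit of all 27 samples, on 20650 genes, called 6 of 6 genes higher at each of these ages, against 34.8%, 32.4% and 38.9% of all genes that differed in either direction. Of all genes, 17.1% were higher and 17.7% lower in fibroblasts at 14 weeks, 16.7% and 15.7% at 1 year, and 21% and 17.9% at 1.5 years. At 14 weeks the log2 difference was 2.67 ± 0.23 for Col4a1 and 2.06 ± 0.22 for Col4a2, 5.18 ± 0.67 for Col4a3 and 4.61 ± 0.43 for Col4a4, and 2.25 ± 0.22 for Col4a5 and 5.05 ± 0.39 for Col4a6 (SE). At 1 year it was 4.49 ± 0.24, 3.87 ± 0.23, 4.96 ± 0.67, 4.53 ± 0.43, 2.91 ± 0.23 and 4.82 ± 0.38 in the same order. At 1.5 years it was 3.28 ± 0.23, 2.59 ± 0.22, 4.06 ± 0.65, 4.12 ± 0.43, 3.72 ± 0.23 and 4.46 ± 0.37. The largest adjusted p of these 18 tests was 1.60e-05, for Col4a3 at 1.5 years. All 8 fibroblast markers were likewise higher in fibroblasts at each age, and whole heart RNA includes that of its fibroblasts. The 8 cardiomyocyte markers were all lower at each age. Of the 10 endothelial markers, 1 was higher at each age, and 0, 2 and 0 were lower in age order. Of the 10 pericyte and smooth muscle markers, 3, 1 and 3 were higher and 3, 4 and 5 lower. The part of endothelial cells, pericytes and smooth muscle in the higher Col IV values was not tested.

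The chain ratios were set side by side in the tissues from 14 weeks on with an exact permutation test within age (two-sided, 1000 arrangements, smallest possible p 0.001), chosen after seeing the values. The ratio of Col4a1 to Col4a2 was 1.56 times as high in fibroblasts and that of Col4a5 to Col4a6 was 0.270 times as high, each with an adjusted p of 0.00167. The ratio of Col4a3 plus Col4a4 to the first pair was 2.52 times as high in fibroblasts (adjusted p = 0.00167). For Col4a3 to Col4a4 it was 1.24 times as high (adjusted p = 0.490), although without 1.5-year heart replicate 3 it was 1.42 times as high (adjusted p = 0.0375). For Col4a5 plus Col4a6 to the first pair it was 0.975 times as high (adjusted p = 0.906).

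For the first pair the change between 14 weeks and 1 year differed between the tissues, with fold changes of 0.64 and 0.70 (log2) in fibroblasts, where neither passed the test, and -1.14 and -1.06 in hearts for Col4a1 and Col4a2. The difference, tested as an interaction over all samples, was 1.83 ± 0.32 for Col4a1 and 1.81 ± 0.32 for Col4a2 (SE, adjusted p = 0.00465 for both), and 2 of the 6 genes passed against 1.72% of all genes (1.25% with a positive and 0.47% with a negative difference). Without 14-week fibroblast replicate 4 the adjusted p was 0.0504 for Col4a1. For the other 4 genes the difference lay between -0.23 and 0.66, with adjusted p-values of at least 0.375. Endothelial markers in fibroblasts summed to 1599 and 1908 CPM at 14 weeks and 584.1 and 799.1 CPM at 1 year, while those of hearts were at 868.4 to 938.3 and 782.8 to 959.4 CPM, and 0 of the 10 passed the same interaction test. Of the 8 fibroblast markers, whose sums in fibroblasts were higher at 1 year than at 14 weeks (39467 and 48781 against 30312 and 31437 CPM), 1 passed it. The part of these markers in the difference was not tested. From 1 year to 1.5 years 0 of the 6 genes passed, against 0.324% of all genes (0.169% positive and 0.155% negative), with -1.21 ± 0.32 for Col4a1 (adjusted p = 0.0964) and -1.28 ± 0.32 for Col4a2 (adjusted p = 0.0763). Both had unadjusted p-values under 0.05, as had Col4a5, and DESeq2 called 2, Col4a1 and Col4a2.

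Other basement membrane genes, the proteins to which the Col IV lattice is joined, changed in hearts from day 1 to 4 weeks in both directions. Of the 17 of 18 listed genes that were tested, 8 rose and 3 fell, with a median log2 fold change of 0.458 against -0.0868 over all genes. Over all genes the share changed at the 4 successive steps was 18.2%, 1.61%, 0.972% and 2.66% in hearts and 15.5%, 3.87%, 1.78% and 0.24% in fibroblasts, against which the list counts are to be read. The largest changes were those of Col18a1, a basement membrane collagen that carries endostatin (-2.18 ± 0.30), Col15a1, a related collagen (1.83 ± 0.27), and Lamb2, a laminin chain (1.59 ± 0.15). From 4 to 14 weeks 5 fell and 0 rose, namely Sparc, a collagen-binding matrix protein (-1.82 ± 0.15), Col18a1, Col15a1, Lamc1 and Lamb1. At the later steps 1 rose by 1 year (Agrn, agrin) and 2 fell by 1.5 years (Agrn and the laminin chain Lama5). In fibroblasts 7 of 18 rose and 2 fell from day 1 to 4 weeks, against 15.5% of all genes changed (9.28% higher and 6.2% lower), with Lamb2 the largest at 1.42. By 14 weeks 0 rose and 4 fell, against 3.87% of all genes (1.79% higher and 2.08% lower). By 1 year 2 rose, Nid2 and Col18a1, and by 1.5 years 2 fell, Nid1 and Sparc.

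The list for folding, secretion and cross-linking of Col IV held 18 genes, all tested. In hearts 4 rose and 2 fell from day 1 to 4 weeks, against 12.1% higher and 6.1% lower over all genes, with P4ha1, a prolyl hydroxylase subunit, at 2.27 ± 0.26 and Plod1, a lysyl hydroxylase, at 1.52 ± 0.17. P4ha3 fell by 5.86 ± 1.50 on the log2 scale and was under 1 CPM in every heart from 4 weeks on. By 14 weeks 4 fell and 0 rose (Loxl2, Pxdn, Serpinh1 and Plod1), and by 1 year 2 fell and 0 rose, Serpinh1, the collagen chaperone (-0.84 ± 0.14), and P4ha1 (-1.13 ± 0.25). By 1.5 years 1 rose, Serpinh1. In fibroblasts 3 rose and 5 fell from day 1 to 4 weeks and 4 fell by 14 weeks. By 1 year 3 rose, with Serpinh1 at 1.18 ± 0.22, Plod3 at 0.98 ± 0.18 and P3h3 at 0.93 ± 0.13, and 0 changed by 1.5 years. The difference between the tissues from 14 weeks to 1 year was called for 5 of the 18 genes, against 1.72% of all genes, all more positive in fibroblasts: Serpinh1 (2.07 ± 0.28), P4ha1 (1.62 ± 0.35), Plod3 (1.16 ± 0.26), Plod1 (0.95 ± 0.24) and P4hb (0.83 ± 0.22).

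Of the 10 listed receptors, 2 rose and 1 fell in hearts from day 1 to 4 weeks, against 12.1% higher and 6.1% lower over all genes, namely Ddr2 (1.20 ± 0.33) and Cd47 (0.79 ± 0.19) higher and Ddr1 (-1.19 ± 0.21) lower. Ddr1 and Ddr2 are collagen receptors with tyrosine kinase activity. In fibroblasts 4 rose and 2 fell over the same time, against 9.28% and 6.2% of all genes, and 1 fell by 14 weeks (Itgb3). At all later steps 0 receptors changed in either tissue. The lists describe genes that work with Col IV and were not tested as sets.

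Markers of other cells were read in the fibroblast samples beside these values. Endothelial markers summed to 466.8 to 741.9 CPM on day 1, and to 755.0, 659.5 and 2195 CPM at 4 weeks, where replicate 3 stood apart, and the 1.5-year samples were at 356.0 and 1653 CPM. Col4a3 was between 236.0 and 270.4 CPM in those 3 samples at 4 weeks. The 10 pericyte and smooth muscle markers summed to 737.8 to 1128 CPM on day 1 and 462.8 to 546.1 CPM at 4 weeks, with 2 higher and 6 lower. Leukocyte markers had 2 of 6 tested higher and 0 lower from day 1 to 4 weeks, cardiomyocyte markers 0 of 8 higher and 5 lower, epicardial and mesothelial markers 0 of 6 higher and 1 lower, and glial markers 0 of 7 either way. Of single markers, Sox10 (glia), Msln and Upk3b (mesothelium) and Cd3e (T cells) were under 1 CPM in every fibroblast sample of both ages. Other markers of these lists were present. Epicardial and mesothelial markers summed to 86.1 to 126.3 CPM on day 1 and 36.9 to 54.7 CPM at 4 weeks. Leukocyte markers summed to 80.9 to 156.2 CPM and 196.3 to 351.4 CPM at these ages. The glial sums were 14.1 to 29.4 CPM and 22.3 to 42.1 CPM. The part of these cells in the Col IV values was not tested.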

How the data were processed

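Poly(A) RNA was sequenced as single-end 65 bp reads from 12 cardiac fibroblast and 15 whole heart samples. The values are raw counts per gene that the authors deposited, made with STAR 2.5.3a on mm10, and the gene annotation and the strand setting are not given in the sources used here. The tables held 22855 genes, and none of the 24 pairs of replicates of the same age was identical. Groups were taken from the labels. The 6 genes, the partner and marker lists and the tests were chosen with earlier results of these data known.

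Differences were tested in edgeR 4.0.16 (R 4.3.3) with its quasi-likelihood F test on all samples of a tissue, or of both for differences between tissues, after filterByExpr and TMM scaling, with Benjamini-Hochberg adjustment and a threshold of 0.05. The script was tested on simulated data. CPM used a prior count of 2 on the log2 scale for correlations. Chain ratios used counts plus 0.5 per kb of the longest transcript and exact permutation tests in scipy 1.17.1, and correlations used 100000 permutations. Named genes were the 6 members, the 3 genes most correlated with each of them among those with a mean of at least 1 CPM, and from each of the partner lists (basement membrane partners, folding and secretion, receptors) the 3 called genes with the largest fold change in hearts from day 1 to 4 weeks; other list genes were named after their values were seen. Alternatives were DESeq2 1.42.0, other scalings and filters, offsets for length and GC content, the replicate number as a block, fits of only the ages compared, and each replicate left out. Positions came from GENCODE M21 on GRCm38, which held 95.4% of the symbols, and promoter sequences from RefSeq on GRCm38.p6.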

Additional observations from a re-analysis of the deposited data

Results flagged for a closer look

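Col4a1 and Col4a2 are set out here because their change from 14 weeks to 1 year differed between the tissues by the interaction test, with a log2 difference of 1.828 for Col4a1 and 1.813 for Col4a2. Col4a1 was higher in both 1-year fibroblast samples and lower in all 3 1-year heart samples than at 14 weeks, and Col4a2 likewise. Over the fits that left out 1 sample each, the difference for Col4a2 ranged from 1.633 to 2.016 with adjusted p-values (edgeR) from 0.00284 to 0.0490, and for Col4a1 the adjusted p passed the threshold in all but the fit without 14-week fibroblast replicate 4 (0.0504).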

How the results depend on the processing

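Of the values and counts that answer a comparison, 384 alternatives were scored as the same, 38 moved, 6 reversed, 2 gained and 2 lost the call. A count of calls was scored by its size alone, whichever genes were called and in whichever direction. In hearts from day 1 to 4 weeks with library size alone, the count was thus scored as the same although other genes were called. Correlations without an adjusted p were scored by their sign and by the shift in r. For single genes, 871 alternatives kept their direction and call, 39 lost and 27 gained the call and 16 reversed. Unless stated, the cause was not tested. All 6 genes were called higher in fibroblasts than in hearts at each age from 14 weeks on in every fit that left out 1 sample. In fibroblasts from 1 year to 1.5 years the count of genes called (1) became 2 with DESeq2, with at least 10 counts in every sample, with library size alone and with no filter, 0 with only the 2 ages compared, and 0 to 1 without 1 sample. From 14 weeks to 1 year the 0 became 2 with DESeq2 and with at least 10 counts, 1 with no filter, 3 with only the 2 ages compared, and stayed 0 without each sample; Col4a4 (-0.10) was at 0.114 with length and GC offsets and between -0.1988 and 0.0001382 without 1 sample, and Col4a6 was at -0.02122 with library size alone. In hearts from day 1 to 4 weeks the 3 became 5 with at least 10 counts and 0 to 3 without 1 sample. From 14 weeks to 1 year the 2 became 0 with library size alone and 0 to 2 without 1 sample, with Col4a4 between -0.2489 and 0.4206. From 1 year to 1.5 years the 1 became 2 with length and GC offsets, where Col4a3 was at 0.753 and Col4a4 at 0.490, and 0 with only the 2 ages; without 1 sample Col4a3 was between -0.5552 and 0.2217 and Col4a4 between -0.764 and 0.006424. From day 1 to 1.5 years Col4a3 was at -0.1405 with library size alone.

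For the difference between tissues, the 0 from 1 year to 1.5 years became 2 with DESeq2 and 0 to 2 without 1 sample (2 without 1.5-year heart replicate 3), with Col4a4 between -0.6316 and 0.1133. The 2 from 14 weeks to 1 year became 1 to 2, with Col4a4 between -0.485 and 0.2224 and Col4a6 between -0.725 and 0.09909. The tissue ratio (log2) of Col4a3 to Col4a4 was between 0.1397 and 0.5072 without 1 sample, and that of Col4a5 plus Col4a6 to the first pair between -0.1174 and 0.06862. The test of the Col4a1 to Col4a2 ratio over heart ages had adjusted p-values of 0.02315 to 0.2508 in exact permutation tests without 1 sample, and passed only without 1-year replicate 1. Within-pair r in hearts for deviations from the age means was 0.963, 0.353 and -0.047 for the 3 pairs in order, and for Col4a3 and Col4a4 it was 0.492 without the 2 farthest samples and 0.531 to 0.733 without 1 sample. In fibroblasts r was 0.972, 0.972 and 0.785 without the 2 farthest samples, 0.899, 0.952 and 0.461 for deviations (Spearman rho 0.42 for Col4a3 and Col4a4), and 0.991, 0.914 and 0.339 from 4 weeks on. The replicate numbers share only a name: same-numbered hearts had deviations that correlated at -0.0619 to 0.102 over 30 pairs and fibroblasts at -0.0316 to 0.0356 over 7. With the replicate number as a block the count of calls became 0 in fibroblasts from 1 year to 1.5 years and 0 in hearts from 14 weeks to 1 year, and Col4a4 in fibroblasts from 14 weeks to 1 year was at 0.03657. Depth limits Col4a3 and Col4a6 most, with as few as 56 and 30 counts in a heart sample.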
